A study of Homo sapiens with 12 samples.

Results

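The comparison set Huh7 cells grown by Inject-Embed against Huh7 cells grown by Mix-Embed, a pair of 3D cultures in Matrigel, in all genes of the deposited count table. It rests on 4 of the 12 libraries in the series, 2 biological replicates of each culture, and was chosen by culture and not by any measured value. Huh7 is an established human hepatocellular carcinoma line that still makes many liver plasma proteins, used here as the wild-type line in DMEM with 10% FBS. For Inject-Embed, 4000 cells were injected into the centre of a 50% Matrigel drop in 1 well of a 96-well plate. For Mix-Embed, 20000 cells in an equal mix with full-strength Matrigel were laid over a gel that had already set. Matrigel is a basement membrane extract of a mouse tumour, rich in laminin and collagen IV. Both cultures were harvested after 6 to 8 days, and the day of each library is not given, so the harvest day may differ between them. The embedding method and the number of cells seeded differ together and cannot be told apart here. Huh7 grown flat in 2D for 2 days, to about 90% confluence, and the mesenchymal-like liver cancer line HLF, grown by the same pair of 3D methods from 2000 (Inject-Embed) and 10000 (Mix-Embed) cells, were used only to place the Huh7 values. Each culture is a whole well of 1 cell line, so fewer cells with a transcript and less transcript per cell cannot be told apart.

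The library totals were 13836667 and 12325877 counts in Huh7 Inject-Embed and 15565857 and 13852135 counts in Huh7 Mix-Embed, and all 12 libraries lay between 12325877 and 16041906. Mitochondrial ribosomal RNA took 0.487% and 0.477% of counts in Inject-Embed and 0.543% and 0.504% in Mix-Embed, and protein-coding genes took between 97.3% and 97.4% in all 4. Levels below are in CPM, the counts of a gene divided by the scaled library total and brought to a common size, and a gene was called where the adjusted p of edgeR's quasi-likelihood test was under 0.05. A fold change is Inject-Embed over Mix-Embed on the log2 scale with its standard error.

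Cells in a gel can meet gradients of oxygen, nutrients and metals, and no measure of these is given for these cultures. The transcription factors HIF1A and EPAS1 are stabilised when oxygen is low and switch on genes of glycolysis, angiogenesis and mitochondrial turnover. The zinc sensor MTF1 switches on the metallothioneins, small cysteine-rich proteins that bind zinc, copper and cadmium, and SREBF2 switches on the genes of cholesterol synthesis when sterol is short in the endoplasmic reticulum.

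Of 19342 genes tested, 4435 (22.9%) differed between the cultures. In Inject-Embed 1848 (9.55%) were higher and 2587 (13.4%) were lower, and the median change over all genes was -0.03. Most changes were small: the median log2 change was 0.33 among genes called higher and -0.53 among genes called lower. A change of at least 2-fold was called for 679 genes (3.51%), of which 96 (0.496%) were higher and 583 (3.01%) lower. With library totals alone as the scale, 2393 genes were called higher and 2132 lower, while genes changed at least 2-fold remained mostly lower (117 higher and 515 lower). A fit of the 6 Huh7 libraries alone called 2296 higher and 2215 lower, and of the 4 compared libraries alone 2461 and 2440. The split of all calls thus depended on the scale and on the libraries in the fit. Calls were far more frequent among abundant genes, 86.8% of genes above 1000 CPM against 1.93% of genes under 1 CPM, counted by the group with the higher level. Of 2443 genes at 100 to 1000 CPM, 697 were higher and 564 lower. Of 106 genes above 1000 CPM, 26 were higher and 66 lower. The shares of 9.55% and 13.4% are thus low marks for lists of abundant genes. The list counts below are a description, and no list was tested as a set. The Inject-Embed libraries lay above both Mix-Embed libraries in 4709 genes (24.3%) and below both in 6176 (31.9%). Of the 4435 called genes 4419 did not overlap, so a lack of overlap, where given below, adds little to a call.

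**Figure D1:**
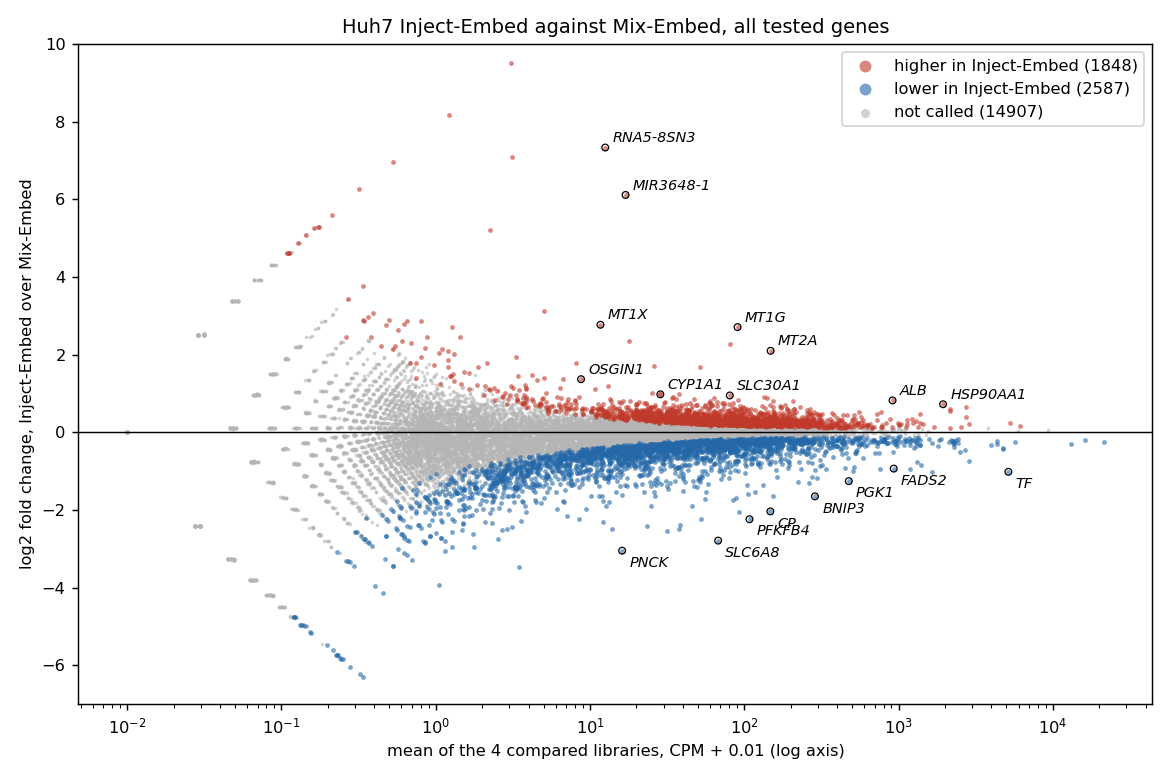
Each point is 1 of the 19342 tested genes, with the mean level in the 4 Huh7 libraries across (CPM + 0.01, log axis) and the log2 fold change, Inject-Embed over Mix-Embed, up. The 1848 genes called higher are red, the 2587 called lower blue, and some of the genes described in the text are ringed. RNA5-8SN3 and MIR3648-1 lie highest among the ringed genes, followed by the metallothioneins, and PNCK and SLC6A8 lie lowest.

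On the first principal component of the 6 Huh7 libraries (40.5% of the variance) Inject-Embed scored 42.1 and 45.4, Mix-Embed -5.7 and -5.2 and 2D -39.1 and -37.5. On the second (24.1%) Mix-Embed scored -34.9 and -37.9, while Inject-Embed (12.2 and 17) and 2D (23.9 and 19.8) lay on the other side. The root mean square log2 difference between an Inject-Embed and a Mix-Embed library was 0.594 to 0.617, against 0.482 between the Inject-Embed replicates and 0.444 between the Mix-Embed replicates.

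The metallothioneins had the largest median change of the 57 gene lists examined. All 8 tested of 11 listed genes were higher in Inject-Embed, with a median log2 change of 2.32, where 9.55% of all genes were called higher. MT2A (ENSG00000125148, chr16:56608199-56609497, + strand), the most widely expressed member, had 252 and 229 CPM in Inject-Embed against 52.4 and 60.1 CPM in Mix-Embed and 0.667 and 1.01 CPM in 2D. Its fold change was 2.10 ± 0.07 (adjusted p = 2.16e-27), and the groups did not overlap. MT1G, an isoform induced in the same way by zinc, had 152 and 162 CPM against 24.8 and 23.2 CPM (2.71 ± 0.10, adjusted p = 3.6e-23), and MT1E had 132 and 137 CPM against 27 and 28.2 CPM (2.29 ± 0.09). Per length, MT1G averaged 200 FPKM in Inject-Embed and 29.6 FPKM in Mix-Embed, and MT2A averaged 177 FPKM in Inject-Embed and 40.1 FPKM in Mix-Embed. MT1X, MT1M, MT1H, MT1A and MT1F were higher by 1.69 to 3.13 on the log2 scale, with 7.57 to 80.6 CPM in the Inject-Embed and 0.778 to 25.2 CPM in the Mix-Embed libraries, and none of them overlapped between the cultures. The 8 genes lie together on chromosome 16, and the 100-base windows of MT1A, MT1E, MT1F, MT1G, MT1M and MT2A were not shared with any other transcript, against 11.6% of those of MT1X and 1.39% of those of MT1H.

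Metal response elements are short sites that MTF1 binds in metallothionein promoters. Their core letters TGCACNC or TGCGCNC, on either strand and with overlaps counted, were searched in RefSeq promoter windows (GRCh38.p14, 250 bases before to 50 after the RefSeq start, which can differ from the gene start in the deposited table). The 5 metallothioneins matched in the promoter table, of 11 listed, each held the core, with a median of 4 matches. They are MT2A, MT1X and MT1H, which were higher in Inject-Embed, MT1B, which had too few counts to be tested, and MT4, which had no count in the 4 libraries, so the core was held also by members with no measured change. In all, 29.3% of 27305 promoters held at least 1. Of 19 zinc transporter promoters 6 (31.6%) held it. The windows of MT2A (chr16:56608334-56608633, + strand) and MT1X (chr16:56682220-56682519, + strand), the members with the smallest adjusted p that have a window, are shown because they carry 8 and 4 matches, which stand in capitals.
MT2A: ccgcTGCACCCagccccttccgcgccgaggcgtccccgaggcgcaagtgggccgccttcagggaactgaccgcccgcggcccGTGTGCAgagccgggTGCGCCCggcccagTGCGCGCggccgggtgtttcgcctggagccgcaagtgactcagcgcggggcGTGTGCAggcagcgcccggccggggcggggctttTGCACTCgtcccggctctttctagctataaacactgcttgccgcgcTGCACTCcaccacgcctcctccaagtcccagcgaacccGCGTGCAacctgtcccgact
MT1X: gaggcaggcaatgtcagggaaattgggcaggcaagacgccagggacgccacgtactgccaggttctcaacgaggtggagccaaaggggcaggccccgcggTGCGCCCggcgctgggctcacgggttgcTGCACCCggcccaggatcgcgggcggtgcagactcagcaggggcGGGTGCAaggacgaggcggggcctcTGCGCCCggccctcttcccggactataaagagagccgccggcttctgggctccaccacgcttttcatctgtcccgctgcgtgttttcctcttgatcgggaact
These letters are a description of the windows and not evidence of binding.

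Zinc transporters moved in opposite directions. SLC30A1, the exporter of zinc at the plasma membrane and a classical MTF1 target, had 102 and 111 CPM in Inject-Embed, against 56.5 and 53.5 CPM in Mix-Embed and 23 and 20.4 CPM in 2D. It rose by 0.95 ± 0.07 (adjusted p = 7.25e-14). SLC39A10, an importer of zinc known in mouse cells to be repressed when zinc is plentiful, had 21.7 and 26.3 CPM against 55 and 48.6 CPM, with 98.6 and 93.2 CPM in 2D. It fell by 1.12 on the log2 scale (adjusted p = 2.89e-13), and neither gene overlapped between the cultures. Of 20 transporters and sensors tested, 2 were higher and 4 lower (2 lower without Inject-Embed replicate 2), near the background of 9.55% and 13.4%. The sensor MTF1 itself had 19.4 and 18.8 CPM against 16.2 and 15.3 CPM and was not called (adjusted p = 0.0973). In HLF none of the 8 metallothioneins was called. MT2A had 214 and 226 CPM in HLF Inject-Embed and 240 and 236 CPM in HLF Mix-Embed, and its change differed between the lines by 2.21 ± 0.09 (adjusted p = 2.2e-23). The line difference was also called for MT1E (2.25), MT1X (2.94), SLC30A1 (0.93) and SLC39A10 (-1.24), while MT1G, MT1M, MT1A, MT1F and MT1H had no count in the 4 HLF 3D libraries.

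**Figure D2:**
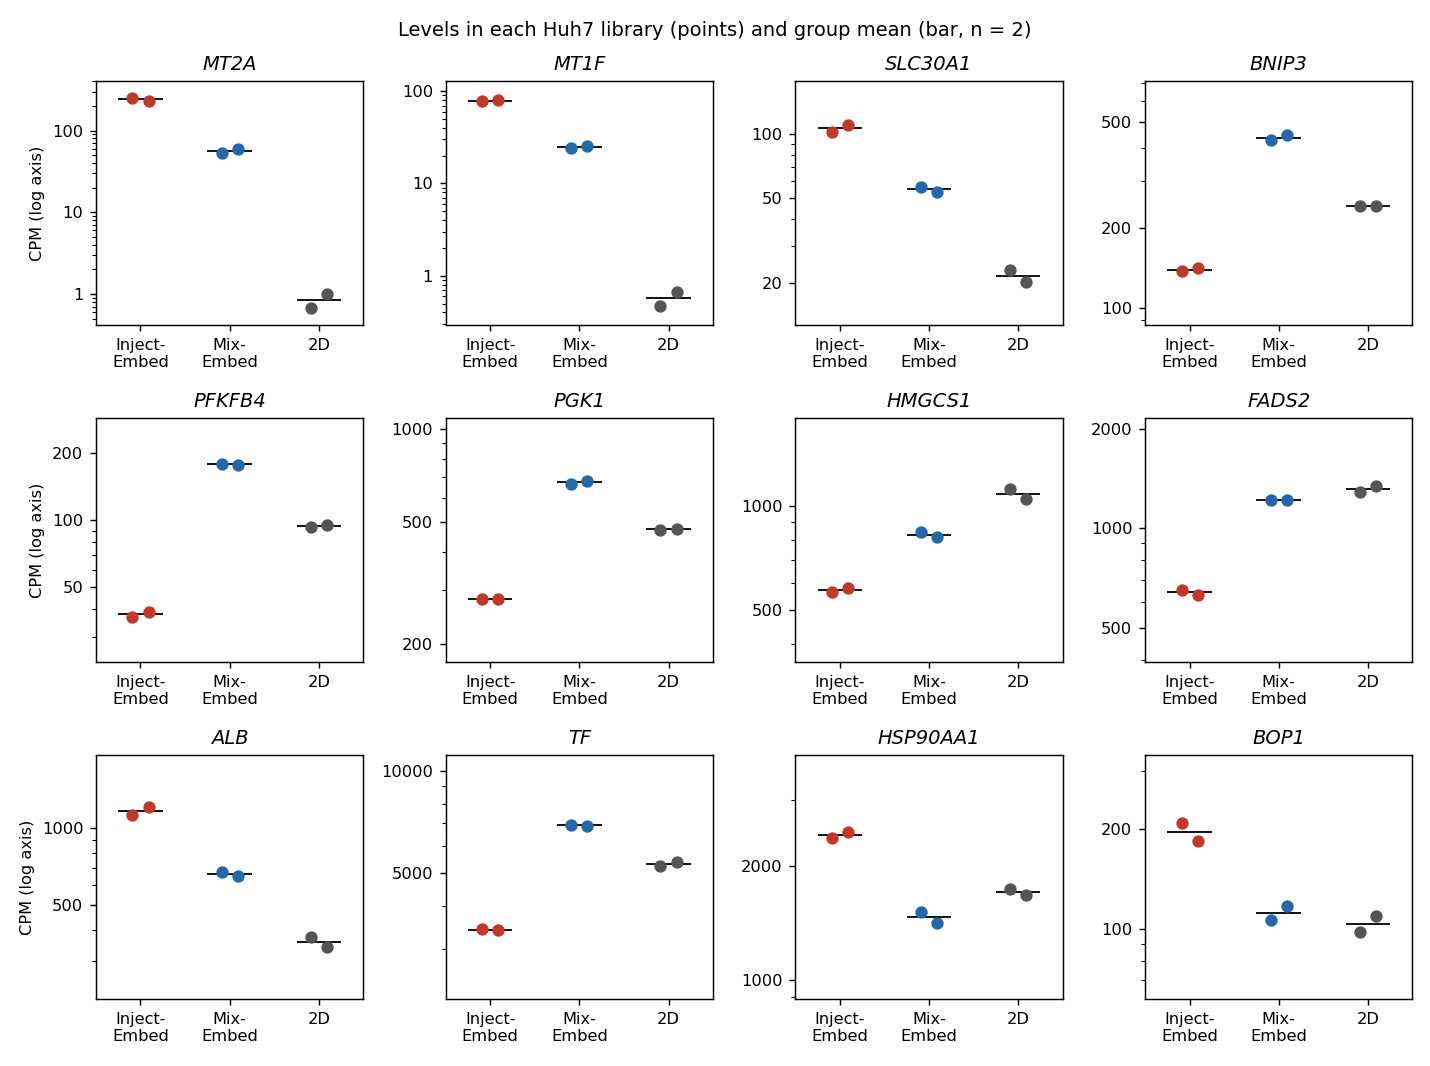
Each panel gives the CPM (log axis, scaled to the gene) of 1 gene in the 6 Huh7 libraries, Inject-Embed at the left, Mix-Embed in the middle and 2D at the right, with a bar at the mean of 2. The Inject-Embed points of MT2A, MT1F and SLC30A1 lie highest, while those of BNIP3, PFKFB4, PGK1, HMGCS1, FADS2 and TF lie below both other cultures.

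Most genes of the hypoxia response were lower in Inject-Embed. Of 33 tested, 28 were called lower and 0 higher, with a median of -0.99, where 13.4% of all genes were called lower. BNIP3 (ENSG00000176171, chr10:131966455-131982013, - strand), a mitochondrial protein that marks mitochondria for removal, had 137 and 140 CPM in Inject-Embed against 426 and 445 CPM in Mix-Embed, and 242 CPM in each 2D library. It fell by 1.65 on the log2 scale (SE 0.05, adjusted p = 1.71e-27). PFKFB4, a kinase that makes the activator of phosphofructokinase, had 36.9 and 38.8 CPM against 180 and 177 CPM (-2.24 ± 0.07). BHLHE40, a circadian and hypoxia-induced repressor, had 36.5 and 35.3 CPM against 147 and 152 CPM (-2.06 ± 0.07). The 2 cultures were far apart in each of these genes, with replicates within a few percent of each other.

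Other hypoxia targets moved the same way. NDRG1, a stress-responsive target used as a hypoxia marker, had 342 and 334 CPM against 663 and 676 CPM (-0.99 ± 0.05), and VEGFA, the angiogenic growth factor, had 61 and 51.9 CPM against 92.3 and 103 CPM (-0.79 ± 0.08). The prolyl hydroxylase P4HA1 (-1.29), which hydroxylates collagen, the mTOR inhibitor DDIT4 (-1.71), the liprin PPFIA4 (-2.40), the crosslinking enzyme LOX (-0.89) and PFKFB3 (-0.82) were also lower without overlap. CA9, often read as a hypoxia marker, stood at 0.227 and 0.085 CPM against 0.766 and 0.156 CPM and was not called (adjusted p = 0.329). At this level 3 counts are 0.227 and 0.255 CPM in the Inject-Embed and 0.209 and 0.233 CPM in the Mix-Embed libraries. The oxygen-regulated subunit HIF1A had 209 and 214 CPM against 211 and 207 CPM and was not called (adjusted p = 0.883), while EPAS1 had 142 and 157 CPM against 190 and 184 CPM and fell by 0.32 on the log2 scale (adjusted p = 0.000446). Of 7 tested subunits and regulators, EPAS1 was the 1 called, and without Inject-Embed replicate 2 another 1 was called higher.

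Set against the same 2D libraries, 2 hypoxia genes were higher and 25 lower in Inject-Embed, while 20 were higher and 3 lower in Mix-Embed. For BNIP3 the change over 2D was -0.80 in Inject-Embed and 0.85 in Mix-Embed, for PFKFB4 it was -1.32 in Inject-Embed and 0.92 in Mix-Embed, and all 4 were called. Both comparisons use the same 2D libraries and are therefore not independent. The 2D cells were harvested at near confluence on day 2, so the days in culture differ along with the format.

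The hypoxia response element is the site that HIF dimers bind. Its core letters, ACGTG or GCGTG on either strand, were found in 23 of 27 matched hypoxia promoters (85.2%, median 1 match), in 12 of 20 glycolysis promoters (60%) and in 48.4% of all 27305 promoters. The windows of BNIP3 (chr10:131981874-131982173, - strand, 6 matches) and PFKFB4 (chr3:48556754-48557053, - strand, 1 match) are shown as those of the members with the smallest adjusted p. Capitals mark the core or its reverse complement.
BNIP3: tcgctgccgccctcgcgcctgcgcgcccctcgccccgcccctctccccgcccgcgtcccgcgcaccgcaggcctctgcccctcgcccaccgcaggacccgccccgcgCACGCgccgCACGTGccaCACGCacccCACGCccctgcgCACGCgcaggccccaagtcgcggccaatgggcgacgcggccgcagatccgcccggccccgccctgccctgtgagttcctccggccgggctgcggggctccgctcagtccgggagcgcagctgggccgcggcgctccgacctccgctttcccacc
PFKFB4: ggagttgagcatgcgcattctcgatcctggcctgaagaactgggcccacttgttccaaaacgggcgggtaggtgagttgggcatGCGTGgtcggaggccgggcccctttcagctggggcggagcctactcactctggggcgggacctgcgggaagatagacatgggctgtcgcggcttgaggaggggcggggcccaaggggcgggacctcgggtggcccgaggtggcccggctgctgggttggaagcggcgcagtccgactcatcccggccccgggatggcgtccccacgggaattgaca
Matches that overlap form a single run of capitals and were counted by their starts, and the letters describe the windows and not binding.

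Most glycolysis genes were lower. Of 20 tested, 17 were lower and 0 higher (1 higher without Inject-Embed replicate 1), with a median of -0.60, and PDK1 is a member of both this and the hypoxia list. PGK1, the phosphoglycerate kinase on the X chromosome, had 280 and 282 CPM in Inject-Embed, against 664 and 679 CPM in Mix-Embed (-1.26 ± 0.04, adjusted p = 6.59e-26). LDHA, which reduces pyruvate to lactate, had 973 and 1027 CPM against 1832 and 1757 CPM (-0.84 ± 0.04, adjusted p = 3.84e-22). Both lay below 2D in Inject-Embed (-0.75 and -0.64) and above 2D in Mix-Embed (0.51 and 0.21). The aldolase ALDOC (-1.70), the enolase ENO1 (-0.74), the pyruvate kinase PKM (-0.77), the dehydrogenase GAPDH (-0.52) and the lactate exporter SLC16A3 (-1.19) were lower too. The glucose transporter SLC2A1 had 118 and 115 CPM against 198 and 201 CPM (-0.78 ± 0.06), and hexokinase HK2 fell by 0.57 on the log2 scale. In glycogen metabolism and gluconeogenesis 8 of 14 genes were lower and 1 higher: the glycogen branching enzyme GBE1 had 30.2 and 27.6 CPM against 58.6 and 55.3 CPM (-0.98 ± 0.09), and the brain-form phosphorylase PYGB had 111 and 114 CPM against 72.7 and 75.4 CPM (0.60 ± 0.06). In HLF, 8 glycolysis genes were higher, 1 was lower and the median was 0.12, and 16 of the 20 differed between the lines, each with the lower value in Huh7.

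Most genes of sterol and fatty acid synthesis were lower in Inject-Embed. Of 26 genes of cholesterol synthesis and uptake, 22 were lower and 0 higher (median -0.36). The sterol sensor INSIG1 had 139 and 149 CPM in Inject-Embed against 236 and 241 CPM in Mix-Embed (-0.73 ± 0.06, adjusted p = 4.92e-14). HMGCS1, which makes HMG-CoA for the mevalonate pathway, had 566 and 579 CPM against 839 and 815 CPM (-0.53 ± 0.05). The farnesyl diphosphate synthase FDPS (-0.68), the sterol oxidase MSMO1 (-0.60) and the regulator SREBF2 (-0.39) were lower as well, and in none of these did the cultures overlap. FDPS shares 18.6% of its exon bases with the antisense gene RUSC1-AS1 (20.8 CPM on average in Inject-Embed and 32 CPM in Mix-Embed), HMGCS1 shares 37.7% with an antisense gene that averaged 0.987 CPM in Inject-Embed and 2.46 CPM in Mix-Embed, and the strand setting of the counts is not given in the sources used here.

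Among 27 genes of fatty acid synthesis and lipid droplets, 19 were lower and 1 was higher (median -0.45). The desaturase FADS2 had 650 and 629 CPM in Inject-Embed and 1223 CPM in both Mix-Embed libraries (-0.94 ± 0.05, adjusted p = 9.49e-21). Its neighbour FADS1 had 316 and 310 CPM against 603 and 577 CPM (-0.91 ± 0.05), and PLIN2, which coats lipid droplets, had 136 and 131 CPM against 246 and 257 CPM (-0.92 ± 0.06). The elongase ELOVL1 was the gene that rose, with 72.1 and 74.2 CPM against 52.5 and 56.2 CPM (0.43 ± 0.07). In fatty acid oxidation and ketogenesis 7 of 23 were lower and 1 higher (0 higher without either Inject-Embed library or Mix-Embed replicate 1), led by CPT1A, the carnitine transferase of the outer mitochondrial membrane, which had 8.25 and 9.35 CPM against 18.6 and 16.2 CPM (-0.99 ± 0.12).

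Plasma proteins of the liver moved in unequal ways. ALB (ENSG00000163631, chr4:73397114-73421412, + strand), serum albumin, had 1128 and 1209 CPM in Inject-Embed against 672 and 650 CPM in Mix-Embed and 374 and 340 CPM in 2D. It rose by 0.82 ± 0.05 (adjusted p = 5.49e-17) and was the 1 gene of 16 in the albumin family and plasma carriers to be higher (1 of 2 without Mix-Embed replicate 1), while 8 were lower. TF, the iron carrier transferrin, had 3413 and 3403 CPM against 6928 and 6879 CPM (-1.02 ± 0.04, adjusted p = 2.02e-25). AFP, the fetal albumin that hepatocellular carcinoma secretes, had 18904 and 20054 CPM against 23398 and 23086 CPM (-0.25 ± 0.04), and AHSG, fetuin-A, had 805 and 828 CPM against 1551 and 1590 CPM (-0.94 ± 0.04). Per length, ALB averaged 330 FPKM in Inject-Embed and 181 FPKM in Mix-Embed, and AFP averaged 5706 FPKM in Inject-Embed and 6597 FPKM in Mix-Embed, so AFP stayed the more abundant transcript in both.

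Of 17 apolipoprotein and lipoprotein assembly genes, 11 were lower and 1 higher. APOC3, an inhibitor of lipoprotein lipase, had 38.8 and 38.5 CPM in Inject-Embed against 128 and 131 CPM in Mix-Embed (-1.74 ± 0.09, adjusted p = 2.68e-20), and APOM, a carrier of sphingosine phosphate on HDL, fell by 1.19 on the log2 scale. APOM shares 11% of its exon bases with the opposite gene BAG6, which averaged 321 CPM in Inject-Embed and 358 CPM in Mix-Embed. APOB, the structural protein of VLDL, was the 1 that rose, with 6287 and 6579 CPM against 5875 and 5609 CPM (0.16 ± 0.04). Acute phase genes gave 7 of 16 lower and 1 higher (median -0.71). CP, the copper ferroxidase ceruloplasmin and itself a hypoxia-inducible gene, had 56.7 and 59.1 CPM against 240 and 235 CPM (-2.04 ± 0.07, adjusted p = 1.82e-26). It shares 20.1% of its exon bases with HPS3 on the other strand, which averaged 28.4 CPM in Inject-Embed and 39 CPM in Mix-Embed. SERPINA1, the elastase inhibitor, had 4064 and 4063 CPM against 5483 and 5498 CPM (-0.43 ± 0.04), and FGG, the fibrinogen gamma chain, had 1377 and 1374 CPM against 1108 and 1067 CPM (0.34 ± 0.04). CRP and SAA1 had no more than 3 counts in any of these libraries.

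Many complement and clotting factors were lower. In the complement list 14 of 22 were lower and 1 higher (median -0.66), and the count higher was 0 without either Inject-Embed library or Mix-Embed replicate 1. C5, which starts the membrane attack complex once cleaved, had 59.1 and 58.5 CPM in Inject-Embed against 148 and 151 CPM in Mix-Embed (-1.35 ± 0.07). Among 26 coagulation and fibrinolysis genes 14 were lower and 3 higher. PLG, plasminogen, had 11.4 and 9.78 CPM against 37.4 and 41.4 CPM (-1.89 ± 0.14). PLAU, the urokinase activator, went the other way with 106 and 104 CPM against 70.9 and 68 CPM (0.59 ± 0.06). The heparin cofactor SERPIND1 (-0.98) and prothrombin F2 (-0.84) were lower, and none of these genes overlapped between the cultures.

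Enzymes of the urea cycle and amino acid catabolism gave 6 higher and 9 lower of 28. ARG1, the arginase that releases urea, had 11.2 and 11.5 CPM in Inject-Embed against 59.4 and 68.1 CPM in Mix-Embed (-2.49 ± 0.13, adjusted p = 3.6e-19), and HAL, histidine ammonia lyase, had 3.63 and 4.85 CPM against 23.7 and 23.4 CPM (-2.48 ± 0.19). CPS1, the first enzyme of the urea cycle, had 64.7 and 62 CPM against 55.2 and 49.1 CPM (0.28 ± 0.10, adjusted p = 0.0318). The CPS1 log2 fold change was 0.25 without Inject-Embed replicate 1, 0.32 without Inject-Embed replicate 2 and 0.21 without Mix-Embed replicate 2, and no longer passed the test. The list's count of 6 higher was 2 without any 1 of the same 3 libraries. Liver-enriched transcription factors gave 1 higher and 8 lower of 24. HNF4A, the nuclear receptor that holds hepatocyte identity, had 513 and 483 CPM against 560 and 541 CPM, a change of -0.14 ± 0.05 (adjusted p = 0.0276). The HNF4A log2 fold change was -0.09 without Inject-Embed replicate 2, -0.12 without Mix-Embed replicate 1 and -0.16 without Mix-Embed replicate 2, none of them past the test. The bZIP factor CEBPD had 59 and 59.8 CPM against 98.1 and 115 CPM (-0.84 ± 0.09). GATA4 was the factor that rose (0.29 ± 0.05). Without Inject-Embed replicate 2 the count of lower factors was 5. Among 18 cytochrome P450 genes 1 was higher and 5 lower, and the 1 was CYP1A1, a target of the aryl hydrocarbon receptor, with 38.1 and 37.7 CPM against 17.4 and 21.2 CPM (0.98 ± 0.13). The count of 5 lower was 3 without Inject-Embed replicate 2 and 2 without Mix-Embed replicate 1. CYP3A4 and CYP7A1 had too few counts to be tested.

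Iron genes gave 2 higher and 8 lower of 18 (5 lower without Mix-Embed replicate 1). Besides TF and CP, the transferrin receptor TFRC had 491 and 533 CPM in Inject-Embed against 652 and 616 CPM in Mix-Embed (-0.31 ± 0.05), and FTL, the ferritin light chain, had 3083 and 3169 CPM against 2343 and 2436 CPM (0.39 ± 0.04). NRF2 targets gave 9 higher and 1 lower of 20, led by GCLM, a subunit of the enzyme that limits glutathione synthesis, with 72.9 and 78 CPM against 43.6 and 45.8 CPM (0.76 ± 0.08). OSGIN1, an oxidative stress-induced growth inhibitor, had 13.3 and 11.9 CPM against 4.74 and 5.06 CPM (1.37 ± 0.20), and NQO1, the quinone reductase, rose by 0.37 ± 0.06. HMOX1, another NRF2 target, had 37.1 and 36.4 CPM against 34.8 and 37.5 CPM, which overlapped (adjusted p = 0.943).

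Most factors that assemble ribosomes were higher in Inject-Embed while most ribosomal proteins were lower. Of 30 ribosome biogenesis factors, MYC included, 24 (80%) were higher and 0 lower (median 0.46). Of all genes 9.55% were called higher, and of the 2443 at 100 to 1000 CPM 697 were. BOP1, a subunit of the PeBoW complex that matures the large subunit, had 209 and 184 CPM in Inject-Embed against 106 and 118 CPM in Mix-Embed (0.82 ± 0.07, adjusted p = 1.56e-12). DDX21, a nucleolar RNA helicase, had 301 and 309 CPM against 206 and 201 CPM (0.58 ± 0.05), and MYC, which drives this programme, had 190 and 183 CPM against 148 and 155 CPM (0.30 ± 0.06, adjusted p = 9.35e-05). Of 43 cytosolic ribosomal proteins, 40 (93%) were lower and 0 higher, at a median of only -0.23. Lower calls were common at such levels: 66 of all 106 genes above 1000 CPM and 564 of 2443 at 100 to 1000 CPM, against 13.4% of all genes. RPL3 had 2023 and 1961 CPM against 2586 and 2591 CPM (-0.38 ± 0.04), RPL5 1161 and 1255 CPM against 1529 and 1527 CPM (-0.34 ± 0.04). Many ribosomal protein genes have near-identical processed copies, so reads may be split among them.

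A pair of transcripts from the ribosomal RNA repeats was higher in Inject-Embed. RNA5-8SN3 had 30 and 20 CPM in Inject-Embed against 0.279 and 0 CPM in Mix-Embed (7.33 ± 0.43) and MIR3648-1, a miRNA gene inside the same repeat, 42.2 and 24.9 CPM against 0.418 and 0.545 CPM (6.11 ± 0.30). All of their 100-base windows are shared with other copies, so both values are uncertain. In HLF they were higher in Inject-Embed too, with 1.36 and 0.753 CPM against 0.342 and 0.119 CPM for RNA5-8SN3. Selection for poly-A should leave little of these transcripts, and their part in the changes of the ribosome lists was not tested.

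Cytosolic heat shock proteins gave 13 higher and 1 lower of 19 (median 0.42), and 0 lower without any 1 of the 4 libraries. The chaperone HSP90AA1 had 2378 and 2466 CPM in Inject-Embed against 1517 and 1419 CPM in Mix-Embed (0.72 ± 0.04, adjusted p = 1.06e-19), its co-chaperone HSPH1 had 256 and 267 CPM against 150 and 151 CPM (0.80 ± 0.05) and the constitutive HSPA8 rose by 0.47 ± 0.04. The chaperones of the endoplasmic reticulum did not move as a block, with 6 higher and 5 lower of 21: HYOU1 rose by 0.39 ± 0.05, XBP1 fell by 0.20 and HSPA5, the main chaperone of that compartment, had 1150 and 1159 CPM against 1095 and 1067 CPM (adjusted p = 0.0668). Those 5 lower were 2 without Inject-Embed replicate 2 or Mix-Embed replicate 2, and 3 without Mix-Embed replicate 1. ATF4 targets gave 4 higher and 9 lower of 22 (5 lower without Inject-Embed replicate 2), with the amino acid transporter SLC7A5 at 327 and 318 CPM against 213 and 215 CPM (0.59 ± 0.05) and the pseudokinase TRIB3 at 21 and 20.2 CPM against 37.1 and 42.2 CPM (-0.94 ± 0.11).

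Mitochondrial transcripts were mixed. Of the 13 protein-coding genes of the mitochondrial genome 7 were higher and 3 lower. MT-ND2, a subunit of complex I, had 3329 and 3373 CPM in Inject-Embed against 2166 and 2117 CPM in Mix-Embed (0.65 ± 0.04, adjusted p = 1.56e-18), and 26.1% of its windows are shared with nuclear copies. MT-CO2, a subunit of cytochrome oxidase, had 5173 and 5179 CPM against 6268 and 6079 CPM (-0.25 ± 0.03). In the next list 29.4% were higher, where 697 of all 2443 genes at 100 to 1000 CPM were called higher. Nuclear genes of oxidative phosphorylation gave 10 higher and 0 lower of 34 (6 higher without Inject-Embed replicate 2), led by SDHB of complex II at 101 and 100 CPM against 74.1 and 67.4 CPM (0.51 ± 0.07).

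**Figure D3:**
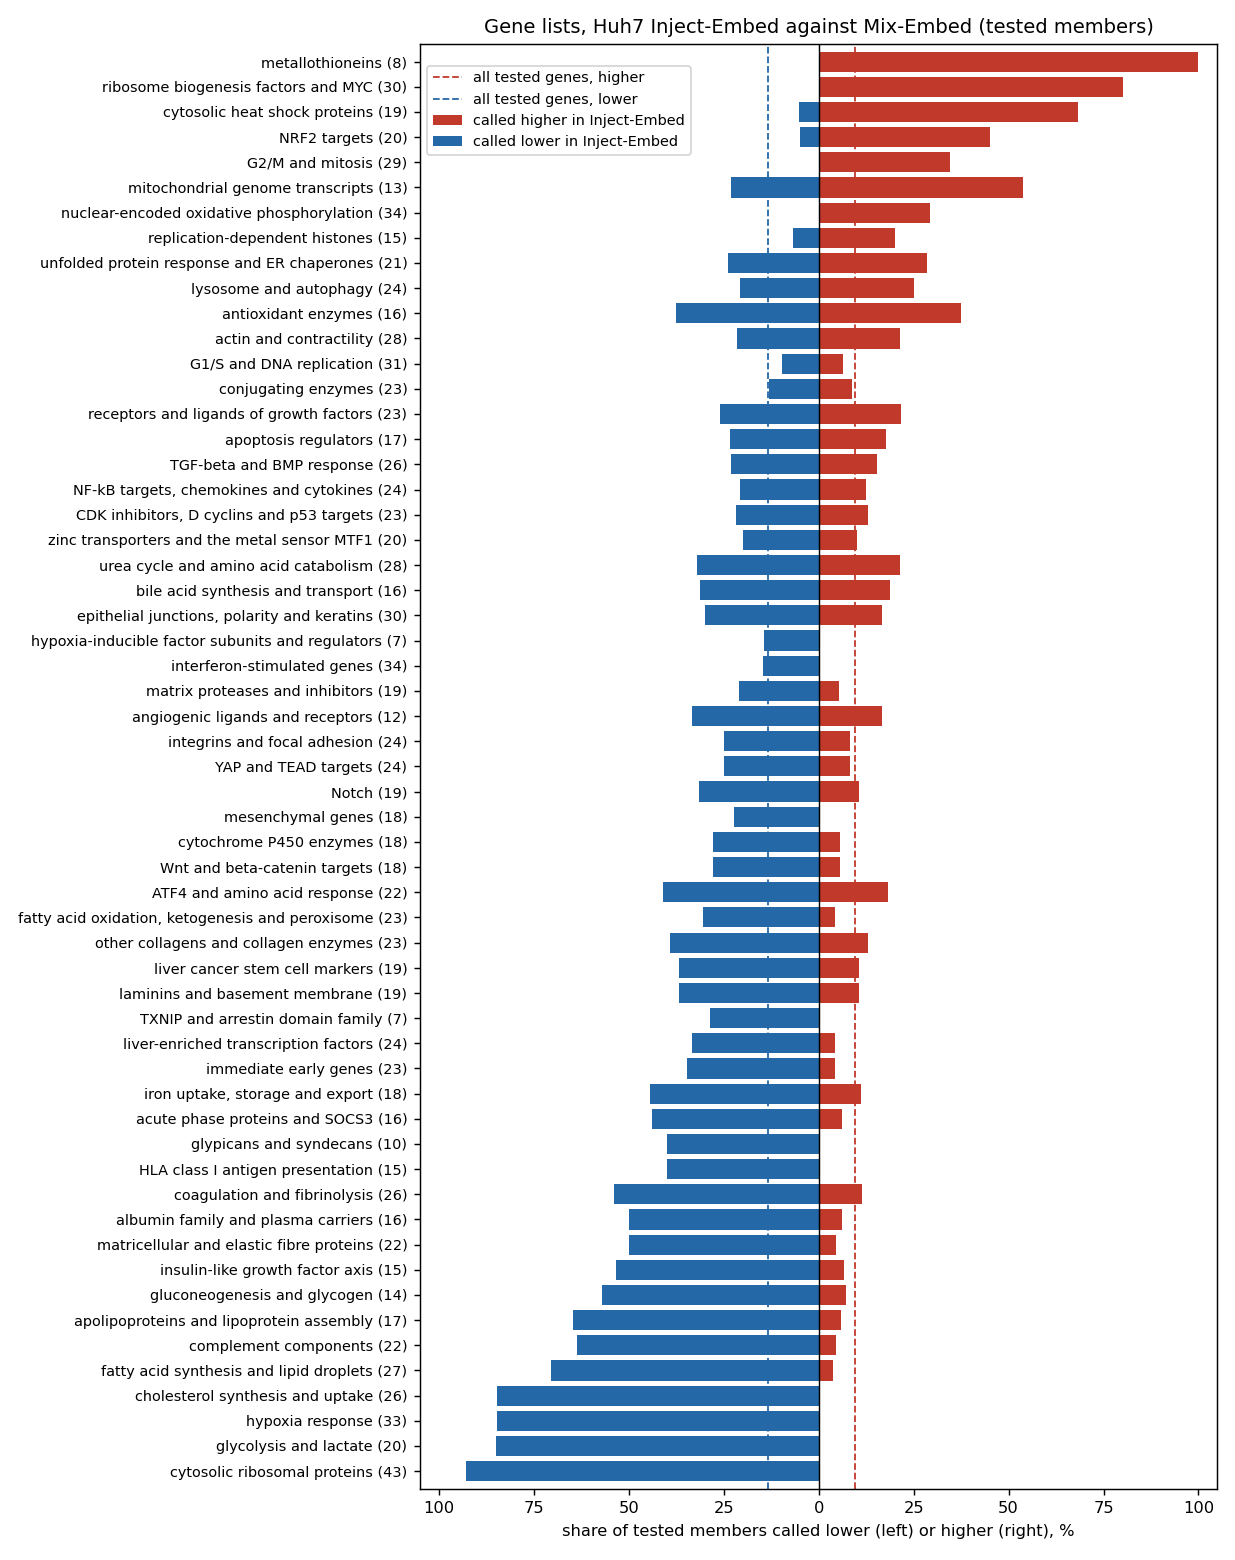
Bars give the share of tested members of each list called higher (red, right) or lower (blue, left) in Huh7 Inject-Embed, with the number tested in brackets and dashed lines at the shares of all tested genes (9.55% and 13.4%). Metallothioneins, ribosome biogenesis factors and cytosolic heat shock proteins head the list, and ribosomal proteins, glycolysis, hypoxia and cholesterol genes close it.

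Changes of cell cycle genes were small. In the G2/M and mitosis list 34.5% of genes were called higher. Of all genes 9.55% were called higher, and of the 2443 at 100 to 1000 CPM 697 were. Of 29 genes of G2/M and mitosis 10 were higher and 0 lower, at a median of 0.09, and the count was 6 without Inject-Embed replicate 2 and 5 without Mix-Embed replicate 2. CDC20, the activator of the anaphase-promoting complex, had 302 and 310 CPM in Inject-Embed against 218 and 223 CPM in Mix-Embed (0.47 ± 0.05, adjusted p = 7.08e-10), and the proliferation marker MKI67 had 630 and 603 CPM against 565 and 534 CPM (0.17 ± 0.04). The MKI67 log2 fold change was 0.14 without Inject-Embed replicate 1 and 0.13 without Mix-Embed replicate 2, neither past the test. In G1/S and DNA replication 2 were higher (1 without either Inject-Embed library, 0 without Mix-Embed replicate 2) and 3 lower of 31. The licensing factor CDT1 had 116 and 95.6 CPM against 156 and 167 CPM (-0.60 ± 0.07), and PCNA, the replication clamp, was at 269 and 276 CPM against 290 and 282 CPM without a call (adjusted p = 0.342). The CDK inhibitor CDKN1A was not called (6.43 and 5.7 CPM against 6.9 and 6.69 CPM).

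Immediate early genes gave 1 higher and 8 lower of 23, where the count higher was 2 without Mix-Embed replicate 2 and 0 without any other 1 of the 4 libraries. FOS, the AP-1 subunit, had 2.42 and 2.72 CPM in Inject-Embed against 10.7 and 12.3 CPM in Mix-Embed and 2.8 and 2.76 CPM in 2D (-2.16 ± 0.22, adjusted p = 1.28e-10). IER3 (-1.03 ± 0.15), a survival gene of the same class, was lower too. TXNIP, which binds thioredoxin and responds to glucose, had 14.8 and 16.8 CPM against 36.6 and 37.1 CPM (-1.23 ± 0.11). In the insulin-like growth factor axis 8 of 15 were lower and 1 higher (5 lower without Mix-Embed replicate 2): the insulin receptor INSR had 68.7 and 67.7 CPM against 112 and 114 CPM (-0.73 ± 0.07). The cytokine LIF had 18.2 and 18.9 CPM against 85.2 and 88.2 CPM (-2.23 ± 0.09, adjusted p = 1.02e-23) and the oncostatin M receptor OSMR 18 and 20.1 CPM against 47.9 and 46.8 CPM (-1.32 ± 0.09), while the chemokine CXCL5 rose to 71.6 and 81.2 CPM, against 42.3 and 44.4 CPM (0.82 ± 0.09). BMF, a pro-apoptotic BH3-only protein, fell by 1.50 on the log2 scale (SE 0.11).

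Genes of the Notch, TGF-beta and BMP pathways moved in both directions. Of 19 Notch genes 2 were higher (1 without Inject-Embed replicate 1) and 6 lower. The receptor NOTCH3 had 23.5 and 22.7 CPM in Inject-Embed against 45.1 and 51.1 CPM in Mix-Embed (-1.05 ± 0.11), its target HEY1 fell by 1.07 and the ligand JAG1 rose by 0.34 ± 0.06. TGF-beta and BMP response genes gave 4 higher and 6 lower of 26 (15.4% and 23.1%, against 9.55% and 13.4% of all genes). Among them were the BMP targets ID4 (15.9 and 13.6 CPM against 5.29 and 8.48 CPM, 1.12 ± 0.15) and ID3 (77.3 and 68.4 CPM against 44.1 and 48.5 CPM, 0.66 ± 0.07). The canonical Wnt target AXIN2 was not called (14.8 and 14.4 CPM against 14.6 and 13.4 CPM), and neither was the YAP target CCN2 (30.2 and 36 CPM against 29.8 and 35.5 CPM, adjusted p = 0.971), in both of which the cultures overlapped or nearly touched.

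Matrix genes were more often lower. Among 23 collagens and collagen enzymes 9 were lower and 3 higher, and among 22 matricellular and elastic fibre genes 11 were lower and 1 higher (median -0.48). PLOD2, the lysyl hydroxylase that sets collagen crosslinks, had 169 and 171 CPM in Inject-Embed against 385 and 376 CPM in Mix-Embed (-1.16 ± 0.05, adjusted p = 2.34e-21). COL11A1 had 28.6 and 25.8 CPM against 71.8 and 72.8 CPM (-1.41 ± 0.07), and COL2A1, a cartilage collagen and the most abundant collagen transcript here, had 3555 and 3457 CPM against 4355 and 4431 CPM (-0.33 ± 0.04). FN1, fibronectin, had 3893 and 3915 CPM against 4910 and 4723 CPM (-0.30 ± 0.03). The collagen chaperone SERPINH1 went the other way, with 319 and 313 CPM against 229 and 239 CPM (0.44 ± 0.05). Laminins and basement membrane genes gave 2 higher and 7 lower of 19 (0 higher without any 1 of both Inject-Embed libraries and Mix-Embed replicate 2, and 1 without Mix-Embed replicate 1), led by the proteoglycan AGRN (165 and 154 CPM against 295 and 317 CPM, -0.94 ± 0.06). COL4A1, a main component of Matrigel, had no more than 3 counts in each culture.

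An epithelial and a mesenchymal marker fell together. CDH1, E-cadherin, had 87.3 and 90.9 CPM in Inject-Embed against 163 and 167 CPM in Mix-Embed (-0.89 ± 0.07, adjusted p = 3.39e-14), and VIM, vimentin, had 44.3 and 41.9 CPM against 60.5 and 61.9 CPM (-0.50 ± 0.07). Of 30 epithelial genes 5 were higher and 9 lower. The keratin KRT8 had 999 and 976 CPM against 780 and 765 CPM (0.35 ± 0.04), and the claudin CLDN1 had 182 and 187 CPM against 128 and 127 CPM (0.53 ± 0.06). Of 18 mesenchymal genes 4 were lower (22.2%, against 13.4% of all genes) and 0 higher. Liver cancer stem cell markers gave 2 higher (1 without Inject-Embed replicate 1) and 7 lower of 19. CD24 had 232 and 229 CPM against 450 and 441 CPM (-0.95 ± 0.04), ALDH1A1 had 2558 and 2607 CPM against 1721 and 1680 CPM (0.60 ± 0.04), and EPCAM (79 and 91.1 CPM against 72.7 and 79.1 CPM) and CD44 (5.15 and 4 CPM against 3.41 and 3.42 CPM) were not called. The tumour antigen GPC3 fell by 0.24 on the log2 scale.

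Surface receptors, transporters and antioxidant enzymes held genes that moved in both directions. Among 23 growth factor receptors and ligands 5 were higher and 6 lower. FGFR1, a receptor of fibroblast growth factors, had 212 and 206 CPM in Inject-Embed against 131 and 141 CPM in Mix-Embed (0.62 ± 0.05, adjusted p = 5.64e-13), while ERBB3, a coreceptor of the EGF receptor family, had 371 and 341 CPM against 481 and 467 CPM (-0.41 ± 0.05). The count of 5 higher was 3 without Inject-Embed replicate 1 or Mix-Embed replicate 1 and 2 without Mix-Embed replicate 2. Bile acid genes gave 3 higher and 5 lower of 16 (1 higher without Inject-Embed replicate 1 or Mix-Embed replicate 2), led by SLCO2B1, an uptake transporter of organic anions, with 85.7 and 80 CPM against 137 and 132 CPM (-0.69 ± 0.07). YAP and TEAD targets gave 2 higher and 6 lower of 24 (3 lower without Mix-Embed replicate 1, and 0 higher without that library or either second replicate). WWTR1, the coactivator TAZ, had 18.9 CPM in both Inject-Embed libraries against 29.2 and 33.8 CPM (-0.73 ± 0.09). Antioxidant enzymes split evenly, 6 higher and 6 lower of 16 (3 lower without Inject-Embed replicate 2 or Mix-Embed replicate 2). PRDX1, a cytosolic peroxidase, had 594 and 587 CPM against 425 and 438 CPM (0.45 ± 0.05) and SOD2, the mitochondrial superoxide dismutase, 223 and 218 CPM against 294 CPM in both Mix-Embed libraries (-0.42 ± 0.05).

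Of the protein-coding genes with the largest falls, PNCK, a calmodulin-dependent kinase, had 3.78 and 3.15 CPM in Inject-Embed against 28.7 and 29 CPM in Mix-Embed (-3.05 ± 0.22). SLC6A8, the creatine transporter and its neighbour on chromosome X, had 21.7 and 12.2 CPM against 116 and 121 CPM (-2.79 ± 0.12), with the Inject-Embed replicates unequal. The 2 genes share only 22 exon bases. The nuclear envelope protein SPAG4 (-2.38), the aquaglyceroporin AQP10 (-1.99) and the fucosyltransferase FUT11 (-1.89) completed the 15 lowest of the named protein-coding genes, with others described above. Beyond the metallothioneins the highest included the glutamate transporter SLC1A3 (35.3 and 31.9 CPM against 17.3 and 16 CPM, 1.01 ± 0.13), the netrin receptor UNC5B (0.98 ± 0.14), the Wnt5a receptor ROR1 (0.97 ± 0.13) and the fatty acid transporter SLC27A4 (0.91 ± 0.10). Among noncoding genes, MIR210HG, the host of the hypoxia-induced miR-210, had 4.16 and 3.91 CPM against 19.6 and 20.9 CPM (-2.32 ± 0.19), and the small nucleolar RNA host SNHG4 had 46.9 and 45.7 CPM against 26.9 and 24.4 CPM (0.85 ± 0.09). Of 4851 genes that are not protein-coding 1.75% were called higher and 5.83% lower, and of 14491 protein-coding genes 12.2% and 15.9%.

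The same contrast in HLF gave fewer calls, and most genes called in both lines changed in the same direction, while several of the lists above did not. HLF Inject-Embed had 689 genes higher (3.56%) and 911 lower (4.71%) than HLF Mix-Embed, and the 1600 calls in all (8.27%) were 766 to 1046 when any 1 of the 4 HLF libraries was left out. The lines shared 715 called genes, 16.1% of the Huh7 calls and 44.7% of the HLF calls, and 516 of these changed in the same direction while 199 did not. The difference between the lines was called for 2044 genes (10.6%), higher in Huh7 for 4.62% and lower for 5.95% of the genes tested, including 1627 of the Huh7 calls (36.7%). In HLF, 25 of 43 ribosomal proteins and 18 of 26 cholesterol genes were higher and 0 lower, against 0 higher and 40 or 22 lower in Huh7, and the line difference was called for 40 and 22 of them. HMGCS1 had 134 and 130 CPM in HLF Inject-Embed against 82.9 and 92.7 CPM in HLF Mix-Embed, a rise of 0.58 ± 0.05, and differed between the lines by -1.11 ± 0.07 (adjusted p = 3.86e-16).

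Hypoxia genes gave 5 higher and 4 lower in HLF, with a median of 0, and 25 of 33 differed between the lines, all with the lower value in Huh7. Of 34 interferon-stimulated genes, 5 were lower and 0 higher in Huh7 (3 lower without Inject-Embed replicate 1), 31 were lower in HLF, and 11 differed between the lines. For these interferon-stimulated genes the Huh7 share of 14.7% lower was near the 13.4% of all genes. In HLF 4.71% of all genes were lower. In Huh7, 8 of the 34 had 3 counts or fewer in at least 1 culture, too few for a fair comparison. IFI44 and RSAD2 had no count in the 4 Huh7 3D libraries. ISG15, a ubiquitin-like antiviral protein, had 5.45 and 6.55 CPM in Huh7 Inject-Embed against 6.13 and 6.23 CPM in Huh7 Mix-Embed. Its HLF levels were 49.7 and 49.4 CPM in Inject-Embed against 102 and 99.2 CPM in Mix-Embed. FOS and TXNIP were lower in both lines. FOS fell by 2.16 in Huh7 and by 1.73 in HLF on the log2 scale, and the line difference was not called (adjusted p = 0.407). TXNIP fell by 1.23 in Huh7 and by 1.68 in HLF, and its line difference of 0.46 ± 0.14 was called (adjusted p = 0.0203), but not without Huh7 Inject-Embed replicate 2 (0.37), Huh7 Mix-Embed replicate 1 (0.44) or HLF Mix-Embed replicate 1 (0.43). Of 29 mitotic genes, 10 were called higher in Huh7 and 21 in HLF, and 5 differed between the lines, each with the lower value in Huh7.

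**Figure D4:**
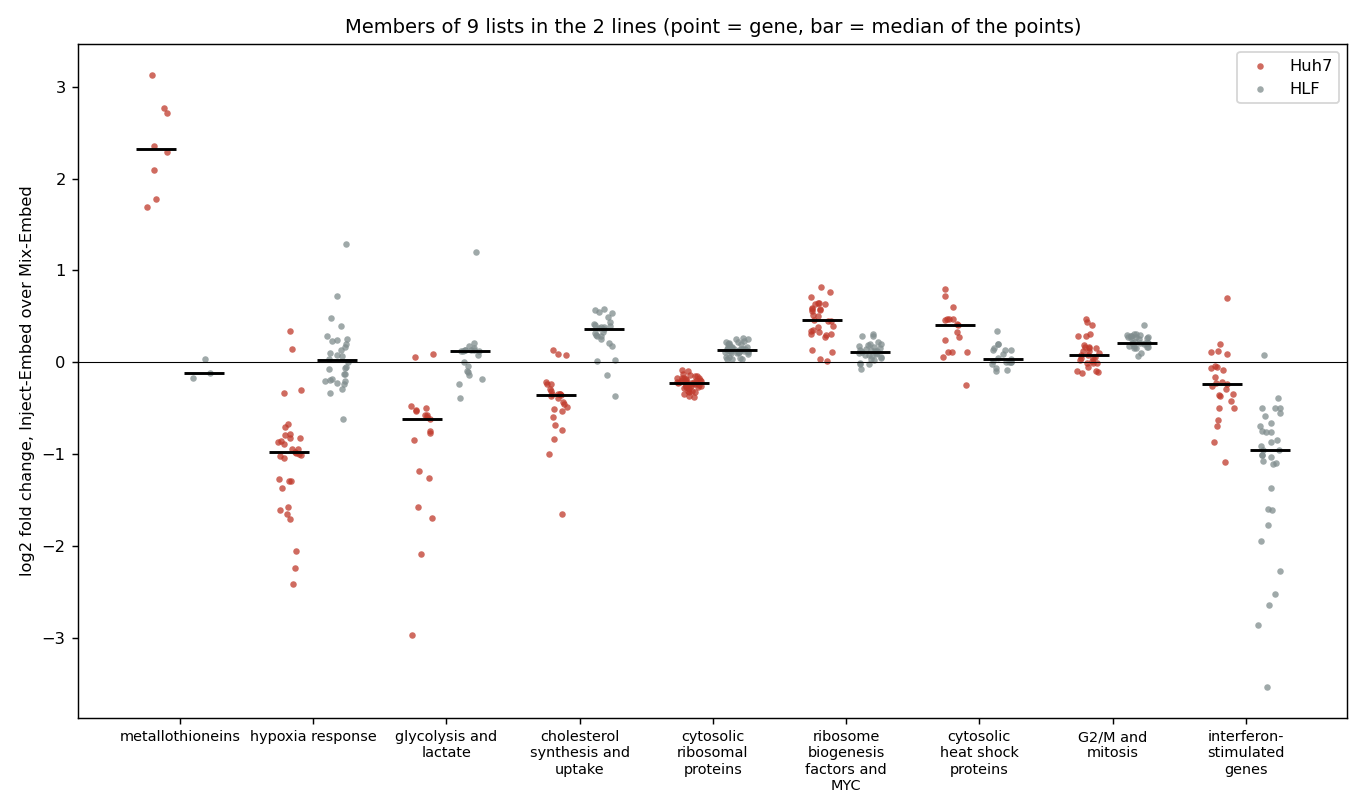
Each point is the log2 fold change, Inject-Embed over Mix-Embed, of 1 member of 9 lists in Huh7 (red, left) and HLF (grey, right), with a bar at the median of the points; members whose group means sum to under 1 CPM in a line are left out for that line. In Huh7 the metallothioneins lie above 0 and the ribosomal proteins below it, as do most but not all hypoxia, glycolysis and cholesterol genes, while in HLF the bars of these lists lie near 0 or, for cholesterol genes, above it.

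Cell type markers stayed those of a hepatocyte-like line. The 8 hepatocyte markers summed to 33940 and 35370 CPM in Inject-Embed and 39420 and 38850 CPM in Mix-Embed, with 2 higher (ALB and APOB) and 5 lower. The calls of APOB, AFP, SERPINA1 and HNF4A were each lost in at least 1 other fit, described below. The 9 fibroblast or stellate markers summed to 145 and 148 CPM against 168 and 153 CPM, almost all of it PDGFRA, with 0 higher and 3 lower (1 without Inject-Embed replicate 2), and DCN, LUM, THY1 and ACTA2 stayed under 0.3 CPM in each library. Macrophage markers summed to 235 and 236 CPM against 281 and 277 CPM, nearly all of it LYZ, while CD68 and CD163 had no count in these 4 libraries. Endothelial markers summed to 13.2 and 14.2 CPM against 11.3 and 11.8 CPM with 0 called, KDR and TEK had no count, and lymphocyte markers summed to under 0.7 CPM. The 9 cholangiocyte markers summed to 486 and 478 CPM against 474 and 495 CPM, and the cholangiocyte keratin KRT7 had no count.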

How the data were processed

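Raw counts per gene for 58735 genes and FPKM of the same genes in 12 libraries were deposited by the authors. Poly-A RNA was sequenced in paired reads, per the labels' protocols, and FastQC, Trimmomatic, STAR 2.7.9a, featureCounts and GRCh38 are named in the submitters' processing notes. Which strand setting, which rule for shared reads and which annotation release were used is not given in the sources used here. Deposited FPKM equal the counts divided by gene length and library total in 167453 values checked, within a relative 1e-06. Gene IDs were matched to symbols for 58207 genes (99.1%), and 12 symbols that a spreadsheet had turned into dates were restored through their IDs.

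The main test was edgeR 4.0.16 (R 4.3.3), the quasi-likelihood F test with Benjamini-Hochberg adjustment over all 19342 tested genes. It was fitted on the deposited counts of all 12 libraries with 6 group means, TMM scaling and filterByExpr (minimum count 10). A call is an adjusted p under 0.05, SE is the fold change divided by the root of F, and the biological coefficient of variation was 4.6%. CPM are counts over the TMM-scaled total of tested genes. Each SE rests on the spread between replicates pooled over all 6 groups, 2D and HLF included (6 residual degrees of freedom). It is also drawn toward the spread of other genes (median prior degrees of freedom 36.3). The SE is thus not the spread of the 2 replicates of each compared culture, and covers variation between biological replicates only. Data were simulated from these libraries with 19342 genes, of which 50 were changed at each size, in random directions. This comparison's test recovered 38% of genes changed 1.25-fold, 68% at 1.5-fold, 76% at 2-fold and 94% at 4-fold, and 5.48% of its calls were false. Far more genes were called in the real data, and mostly lower, so 5.48% is not the false share of the 4435 calls, which was not measured. Alternatives were limma 3.58.1 on log2(FPKM + 1) and log2(FPKM + 0.1) of the deposited FPKM, DESeq2 1.42.0, other scalings, filters and libraries. Tables and figures were made with Python 3.11.15, pandas 2.3.3, numpy 2.4.6 and matplotlib 3.10.9.

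The comparison, the gene lists and the tests were chosen with earlier results of these data known. Genes were named by rule: the 15 highest and 15 lowest protein-coding and 5 highest and 5 lowest noncoding genes (called, not overlapping, at least 10 CPM in the higher group), up to 4 members of a list by smallest p and up to 2 of the opposite direction, and a fixed list, of which a selection is given. Other list members named, among them HIF1A, MTF1, DDIT4, LOX, SLC2A1, SLC16A3, PKM, GAPDH, HK2, SREBF2, TFRC, CPS1, COL2A1, HMOX1 and the cell type markers at 0, were picked after their values were seen. A comparison of 100-base windows of transcripts (GENCODE v44, in which 99.4% of the tested IDs are found) marked genes with near-identical copies. A few genes of these lists are not reported here by name.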

Additional observations from a re-analysis of the deposited data

Results flagged for a closer look

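Among the 155 named genes, 23 were called in opposite directions in the lines, and 199 of all 19342 genes tested were. The difference between Huh7 and HLF was itself called by edgeR's quasi-likelihood test for each of the 23. It was called for all 199, so that call adds little, and the genes were named with these data known. Each value is the Huh7 log2 fold change minus the HLF one, both Inject-Embed over Mix-Embed, and n is 2 libraries per culture and line.

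Fold changes that were negative in Huh7 and positive in HLF came from the hypoxia and glycolysis genes ALDOC (-2.90), LOX (-2.18), NDRG1 (-1.70), PFKFB3 (-1.11), LDHA (-0.97), PKM (-0.90) and GAPDH (-0.69). The cholesterol genes with this pattern were HMGCS1 (-1.11), FDPS (-1.11), INSIG1 (-1.02) and MSMO1 (-0.98). VIM (-0.80), TFRC (-0.60), RPL5 (-0.57) and RPL3 (-0.49) completed this direction. Of these, LDHA had 973 and 1027 CPM in Huh7 Inject-Embed against 1832 and 1757 CPM in Huh7 Mix-Embed, and 1964 and 1973 CPM in HLF Inject-Embed against 1844 and 1759 CPM in HLF Mix-Embed.

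The 8 genes higher in Huh7 Inject-Embed and lower in HLF Inject-Embed were ID3 (1.14), FGG (1.07), ALDH1A1 (1.06), CPS1 (1.01), SERPINH1 (0.83), PLAU (0.83), FGFR1 (0.77) and JAG1 (0.71). ALDH1A1 rose by 0.60 in Huh7 and fell by 0.45 in HLF on the log2 scale. For CPS1 the rise in Huh7 was no longer called in DESeq2 or any limma fit. The lines differ in seeded number too (4000 and 20000 Huh7 cells, 2000 and 10000 HLF cells per well for Inject-Embed and Mix-Embed), and what the difference between the lines rests on was not tested.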

How the results depend on the processing

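The Huh7 calls, 4435 as reported, were 3026 to 3185 with 1 of the 4 libraries left out, 3328 to 4901 under other tools, filters, scalings and sets of libraries, and 4261 with the replicate number as a replicate block. The replicate numbers were not used as pairs in the main test. Same-numbered Inject-Embed and Mix-Embed libraries deviated with a correlation of -0.02, which cannot show whether they were grown or prepared in pairs. The block ended no call of a named gene. Genes called lower numbered 1567 under limma on log2(FPKM + 1) with no filter, against 2587. Calls in HLF, 1600 as reported, were 982 under limma on log2(FPKM + 1), 670 on log2(FPKM + 0.1), 755 with no filter and 766 to 1046 with 1 HLF library left out. The cause of these changes was not tested. The counts of metallothioneins higher and of hypoxia (26 to 28), glycolysis (16 to 17) and cholesterol genes (18 to 22) lower stayed within 1.5 times of the values reported in each setting run. Against 0 reported, 1 cholesterol gene was called higher in 9 settings (other tools, scalings or sets of libraries, or a minimum mean of 1 CPM), and 1 hypoxia gene in 3 of them. The 40 ribosomal proteins called lower were 16 to 26 under the 3 limma fits. The direction of most calls turned in at least 1 setting for zinc transporters, G1/S genes, growth factor receptors and bile acid genes. With the 4 compared libraries alone, 16 genes of oxidative phosphorylation were higher, not 10. Of 155 named genes none changed sign while called. The Huh7 calls of HNF4A and CPS1, described above along with MKI67, were lost also in DESeq2 and all 3 limma fits. That of HNF4A was lost too with library totals alone and with the 6 Huh7 libraries alone, and that of CPS1 with no filter on low counts. The Huh7 call was also lost for AFP, EPAS1, APOB, COL2A1, GPC3, LYZ, SERPINA1 and MT-CO2 in at least 1 limma fit, and for EPAS1 in DESeq2 too. At 3 counts the detection floor was 0.227 to 0.255 CPM in Inject-Embed and 0.209 to 0.233 CPM in Mix-Embed. Genes such as CA9 and COL4A1 could therefore not be compared.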
